A study of Homo sapiens with 8 samples.

Results

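The EGFR family is a set of growth factor ligands and receptor tyrosine kinases at the cell surface, and 9 of its genes were followed here through a pulse of a mitotic kinase inhibitor. The 6 ligand genes were AREG, EREG, HBEGF, TGFA, BTC and NRG1, and the 3 receptor genes were EGFR, ERBB2 and ERBB3. They were chosen with earlier results of these data known, and their rows were taken by symbol. Each was listed once in both gene tables, which held 61271 genes in NCI-H647 and 46427 in NCI-H1944. All 9 passed the low-count filter in both lines.

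RNA was sequenced from NCI-H647 and NCI-H1944, established human lung cancer cell lines that the labels give as wild type. Treated cells received 100 nM of the MPS1 inhibitor BAY-1217389 (MPS1i) and control cells received DMSO. Both were exposed for 48 hours, washed, and grown for a further 24 hours in the same medium before collection. MPS1 (TTK) is a spindle checkpoint kinase, and cells that divide without it missegregate chromosomes. There were 2 libraries in each of the 4 groups, which were NCI-H647 after MPS1i or DMSO and NCI-H1944 after MPS1i or DMSO. Nothing in the labels ties the replicates to separate cultures. The p-values below therefore describe the spread among these libraries, which may be technical.

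Ligands of this family are made as membrane-anchored precursors and are released by metalloproteases, chiefly ADAM17. AREG (amphiregulin) and TGFA (transforming growth factor alpha) bind EGFR, HBEGF, EREG (epiregulin) and BTC (betacellulin) bind EGFR and ERBB4, and NRG1 (neuregulin 1) binds ERBB3 and ERBB4. ERBB2 has no known ligand and acts as a partner of the others, and ERBB3 has little kinase activity of its own and signals within such pairs. In lung epithelium these genes are known for their part in repair, and EGFR and ERBB2 are known for activating mutations in lung adenocarcinoma.

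The promoters of EREG, AREG and HBEGF are shown because these genes had the largest rises of the family in NCI-H647. Each line gives the 250 bases before the RefSeq start of the gene (build GRCh38.p14), 5′ to 3′ on the gene's own strand. EREG lies at chr4:74364895-74365144 on the plus strand, AREG at chr4:74444886-74445135 on the plus strand, and HBEGF at chr5:140346604-140346853 on the minus strand. Capitals mark matches on either strand to 5 motifs. For AP-1, a factor of growth signalling, the letters searched were TGANTCA. The element bound by CREB-family factors (CRE) was searched as TGACGTCA. For TEAD, the partner of YAP, they were GGAATG. The general activator SP1 was searched as GGGCGG. For the TATA box of core promoters they were TATAAA.
EREG: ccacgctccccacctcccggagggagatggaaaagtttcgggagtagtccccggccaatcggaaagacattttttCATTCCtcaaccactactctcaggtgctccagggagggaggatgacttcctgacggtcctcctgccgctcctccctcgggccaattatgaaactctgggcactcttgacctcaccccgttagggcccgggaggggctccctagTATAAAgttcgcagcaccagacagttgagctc
AREG: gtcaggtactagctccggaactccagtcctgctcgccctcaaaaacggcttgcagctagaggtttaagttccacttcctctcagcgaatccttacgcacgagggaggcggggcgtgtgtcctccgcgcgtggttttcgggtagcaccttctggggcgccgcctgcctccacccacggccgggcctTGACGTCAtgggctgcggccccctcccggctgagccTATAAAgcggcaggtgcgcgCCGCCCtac
HBEGF: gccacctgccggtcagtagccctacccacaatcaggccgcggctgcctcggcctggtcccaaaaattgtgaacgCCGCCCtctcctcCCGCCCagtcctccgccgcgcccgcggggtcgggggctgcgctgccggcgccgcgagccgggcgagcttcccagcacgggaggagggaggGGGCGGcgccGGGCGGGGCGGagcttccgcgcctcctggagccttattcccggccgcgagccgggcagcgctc

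The EREG window held a TATA match beginning 32 bases before the start and a TEAD match beginning 175 bases before it. In AREG a TATA match began 29 bases before the start, a CRE match began at 65 bases, and an SP1 match began at 9 bases. The HBEGF window held 5 SP1 matches, of which the nearest began 58 bases before the start and shared a base with the next, and it held no match to the other motifs searched. Over 35116 RefSeq promoter windows of this length, TATA was found in 10.7%, CRE in 1.65%, TEAD in 11.9%, SP1 in 42.6% and AP-1 in 6.57%. No motif was found in all 3 windows. A match describes the letters only, and no binding was measured.

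The NCI-H647 libraries held between 13358514 and 19550859 counts, and those of NCI-H1944 between 38904473 and 43661342, where a count may not be a single read, since values of 2 were more frequent than values of 1. In NCI-H647 the inhibitor libraries were the shallower. The epithelial keratin genes KRT8 and KRT18 were abundant in both lines, but moved with treatment. In NCI-H647 KRT7, KRT8 and KRT18 fell (log2 -0.70, -0.41 and -0.30) and KRT19, CLDN4 and the epithelial factor ELF3 rose (log2 0.35, 0.40 and 3.52). In NCI-H1944 KRT8, KRT18, CLDN4 and ELF3 rose (log2 0.29, 0.19, 0.64 and 0.17). The 8 epithelial markers summed to 663 and 657 CPM (the library's counts scaled to a total of 1e6) after MPS1i against 885 and 867 CPM after DMSO in NCI-H647, and to 4965 and 5103 against 4284 and 4311 CPM in NCI-H1944. CDH1 (E-cadherin) had 3 to 9 counts per NCI-H647 library, and in NCI-H1944 KRT19 and the lung lineage factor NKX2-1 were listed at 0. NKX2-1 had 20 to 37 counts per NCI-H647 library. The lung lineage marker MUC1 had 1051 to 1282 counts per NCI-H1944 library and 3 to 6 per NCI-H647 library. NAPSA, another, had 24 to 38 per NCI-H1944 library and at most 3 per NCI-H647 library. No lung lineage marker was called in either line. The surfactant genes SFTPA1, SFTPB and SFTPC had at most 5 counts in any library of either line. Of the 7 squamous markers, KRT5 was listed at 0 in all 8 libraries. KRT6A rose in NCI-H1944, with 118 and 130 counts after MPS1i against 11 and 30 after DMSO (log2 2.45). KRT14 also rose there, with 20 and 18 counts against 0 and 0. TP63 had 72 to 87 counts per NCI-H1944 library and 32 to 38 per NCI-H647 library. In NCI-H647 none of the 3 squamous markers tested was called. Apart from CD68, a lysosomal gene that tumour cells also express, and CD14, leukocyte markers had at most 33 counts in a library. CD68 rose in both lines (log2 0.59 in NCI-H647 and 1.20 in NCI-H1944). CD14 rose in NCI-H647 at 30 and 31 counts after MPS1i against 11 and 12 after DMSO (log2 1.80), and was not called in NCI-H1944. LYZ rose in NCI-H1944 at 17 and 33 counts against 0 and 5. PTPRC (CD45) had 1 to 8 counts per NCI-H647 library and was listed at 0 in NCI-H1944. The summed level of the 8 leukocyte markers was 231 and 229 CPM after MPS1i against 146 and 147 CPM after DMSO in NCI-H647, and 163 and 166 against 71.0 and 74.3 CPM in NCI-H1944. The 9 fibroblast and endothelial markers summed to 56.6 and 51.8 against 62.4 and 68.4 CPM in NCI-H647, and to 48.2 and 47.5 against 34.2 and 30.7 CPM in NCI-H1944, where all 4 that were tested rose. The part of these marker shifts in the results below was not tested.

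The comparison in NCI-H647 asked which family genes were altered after the pulse. All 6 ligand genes rose, EREG, HBEGF and AREG by more than 3-fold, and TGFA 2.09-fold. Among the receptors EGFR rose 1.30-fold, ERBB2 fell 1.21-fold and ERBB3 did not pass the test. Calls are from edgeR's quasi-likelihood test at an adjusted p under 0.05 over the 15049 genes tested in the line, and fold changes are given on the log2 scale ± the standard error of the fit. With 7 members higher and 1 lower of 9, the background was 27.3% of tested genes higher and 27.0% lower, 54.4% in all. The median log2 change of the members was 0.81, beside 0.01 over all genes tested. In bulk RNA, more cells that express a gene and more RNA per cell cannot be told apart.

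EREG, an epidermal growth factor family ligand made by epithelial cells and macrophages, had 105 and 100.0 CPM after MPS1i against 27.5 and 27.7 CPM after DMSO in NCI-H647. Both inhibitor libraries were far above both controls and replicates differed little (log2 1.85 ± 0.06, adjusted p = 5.95e-13). HBEGF, which is also the receptor for diphtheria toxin, had 90.8 and 89.9 CPM against 26.1 and 24.9 CPM. The groups did not overlap, and the log2 change was 1.77 ± 0.05 (adjusted p = 7.20e-13). AREG had 9.81 and 10.8 CPM after MPS1i against 3.63 and 2.20 CPM after DMSO, which were 133 and 144 counts against 71 and 38. Its controls differed from each other by more than its treated libraries did (log2 1.75 ± 0.19, adjusted p = 2.01e-06). Of all genes tested in this line, 1.81% had a larger log2 fold change than EREG, 1.97% than HBEGF and 2.03% than AREG.

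TGFA had 31.8 and 30.5 CPM after MPS1i against 15.3 and 13.5 CPM after DMSO in NCI-H647 (log2 1.06 ± 0.08, adjusted p = 3.20e-08). NRG1 had 54.1 and 52.7 CPM against 39.5 and 33.8 CPM, a 1.40-fold rise in which the groups stayed apart (log2 0.49 ± 0.07, adjusted p = 1.38e-05). BTC was the lowest ligand by mean CPM, with 56 and 74 counts after MPS1i against 44 and 54 after DMSO, or 4.13 and 5.54 CPM against 2.25 and 3.13 CPM. The groups did not overlap, but the nearest libraries differed by less than the replicates of the treated group did. The rise in BTC (log2 0.81 ± 0.24, adjusted p = 0.00918) did not pass when the first DMSO library was omitted (adjusted p = 0.0675), without the second MPS1i library (adjusted p = 0.139) and in DESeq2 (adjusted p = 0.0672). Its adjusted p from edgeR or DESeq2 ranged from 0.000813 to 0.139 over the alternatives.

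EGFR, the shared receptor of most of these ligands, had 101 and 94.2 CPM after MPS1i against 72.3 and 73.4 CPM after DMSO in NCI-H647. The groups were apart by more than their spread (log2 0.37 ± 0.05, adjusted p = 2.42e-05). ERBB2 had 14.0 and 13.3 CPM against 14.9 and 17.2 CPM, so that the nearest libraries of the groups differed by less than the controls did from each other (log2 -0.27 ± 0.10, adjusted p = 0.0354). Without the second DMSO library the change was smaller and no longer called (log2 -0.18, adjusted p = 0.236). The call also ended without the first (adjusted p = 0.0605) or second MPS1i library (adjusted p = 0.140). In DESeq2 (log2 -0.28, adjusted p = 0.233) and with no low-count filter (log2 -0.30, adjusted p = 0.0634) the change was as large but not called, and over the alternatives the adjusted p from edgeR or DESeq2 ranged down to 0.00651. ERBB3 had 24 and 19 counts after MPS1i against 20 and 16 after DMSO, or 1.77 and 1.42 CPM against 1.02 and 0.928 CPM. It was not called (log2 0.66 ± 0.34, 95% interval -0.06 to 1.38, adjusted p = 0.115).

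**Figure D1:**
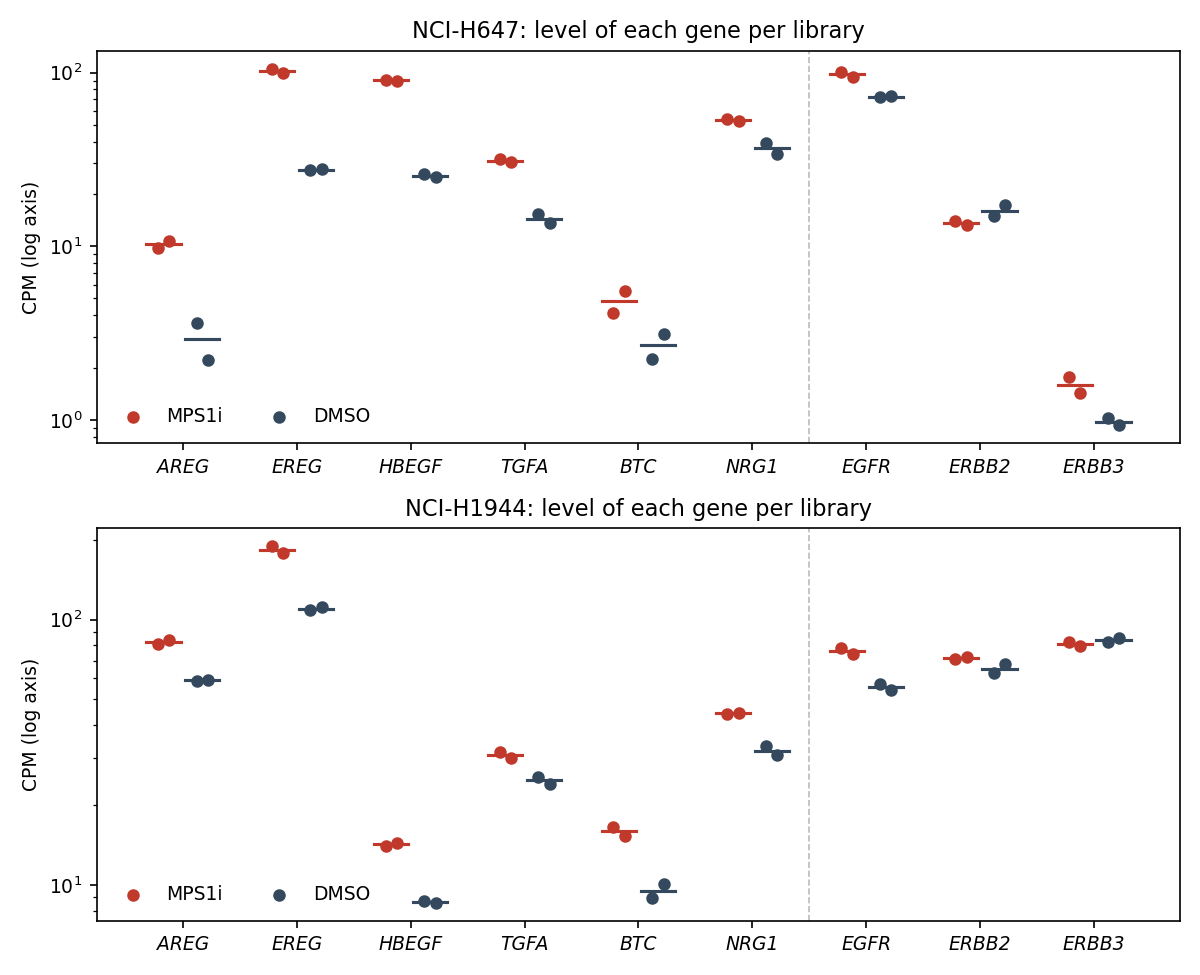
Level of each gene in every library (CPM, log axis), NCI-H647 above and NCI-H1944 below, with MPS1i libraries in red left of DMSO libraries in dark grey. Points are libraries, short bars are means of 2, and the dashed line parts ligands from receptors. EREG and HBEGF stand at 105 and 90.8 CPM in the first treated NCI-H647 library, against 27.5 and 26.1 CPM in the first control.

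In NCI-H1944 the same comparison showed smaller changes of most ligands. All 6 ligand genes rose again, EREG, BTC and HBEGF the most, each between 1.66-fold and 1.69-fold. EGFR rose 1.38-fold, ERBB2 rose 1.11-fold in a call that several alternatives ended, and ERBB3 did not pass the test. Of the 9 members 8 were higher and none lower, against 13.6% of the 16738 tested genes higher and 12.4% lower, 26.0% in all. Their median log2 change was 0.48, beside 0.00 over all genes tested.

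EREG had 189 and 178 CPM after MPS1i against 109 and 111 CPM after DMSO in NCI-H1944, where it was the ligand with the most counts (log2 0.75 ± 0.04, adjusted p = 2.83e-10). AREG had 81.0 and 83.9 CPM against 58.9 and 59.0 CPM, with replicates close in both groups (log2 0.50 ± 0.04, adjusted p = 2.46e-07). HBEGF had 14.1 and 14.3 CPM against 8.70 and 8.56 CPM (log2 0.73 ± 0.09, adjusted p = 2.13e-05). For these ligands every treated library was above every control, and the gap between the groups exceeded the spread within them. Among all genes tested in NCI-H1944, 6.99% had a larger log2 fold change than EREG, 7.25% than HBEGF and 11.1% than AREG. BTC, at 16.6 and 15.2 CPM against 8.92 and 10.1 CPM, rose by 0.75 ± 0.10 on the log2 scale (adjusted p = 2.11e-05). NRG1 had 44.2 and 44.5 CPM against 33.4 and 30.8 CPM (log2 0.48 ± 0.06, adjusted p = 1.14e-05). TGFA had 31.7 and 30.1 CPM against 25.6 and 24.1 CPM, the smallest rise of a ligand in this line (log2 0.33 ± 0.07, adjusted p = 0.00167).

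EGFR had 78.4 and 74.0 CPM after MPS1i against 57.1 and 54.4 CPM after DMSO in NCI-H1944, and the groups were clearly apart (log2 0.46 ± 0.05, adjusted p = 1.61e-06). ERBB2 had 71.3 and 72.6 CPM against 62.7 and 67.9 CPM, where the controls differed by more than the treated libraries (log2 0.15 ± 0.05, adjusted p = 0.0267). Leaving out the first DMSO library ended the ERBB2 call (log2 0.10, adjusted p = 0.343), and so did refits without the first (adjusted p = 0.0558) or second MPS1i library (adjusted p = 0.0917), in DESeq2 (adjusted p = 0.0805) and with no low-count filter (adjusted p = 0.134), and ranged down to an adjusted p = 0.00895. ERBB3 had 82.1 and 79.3 CPM against 82.5 and 85.3 CPM, a log2 change of -0.04 ± 0.04 with a 95% interval from -0.13 to 0.04 (adjusted p = 0.503).

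**Figure D2:**
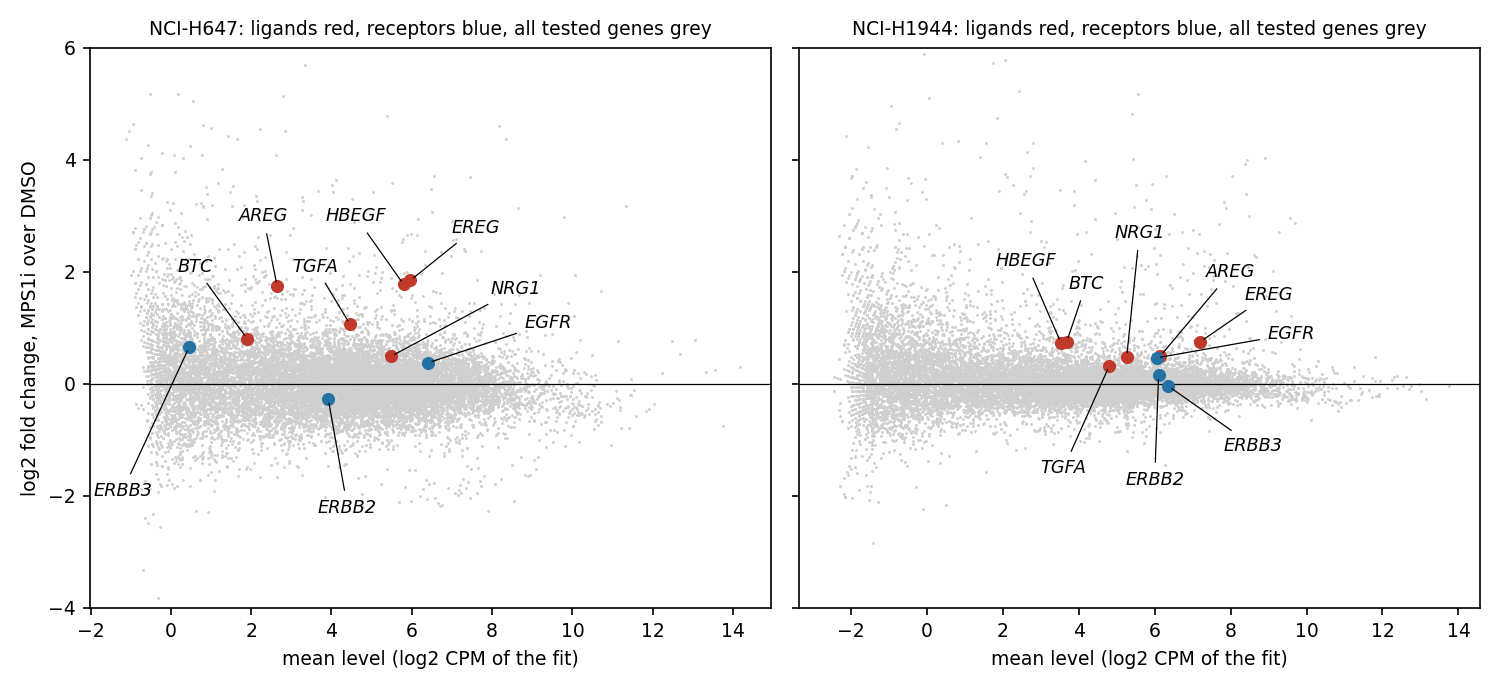
Log2 fold change of MPS1i over DMSO against mean level (log2 CPM of the fit) for all tested genes (grey), ligands (red) and receptors (blue), NCI-H647 left and NCI-H1944 right. The vertical axis leaves out 14 genes in NCI-H647 and 52 in NCI-H1944. EREG, HBEGF and AREG lie near 1.8 in NCI-H647, at the upper edge of the cloud, and between 0.50 and 0.75 in NCI-H1944.

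The lines differed in how much 4 of the ligands rose. The difference was tested as the interaction of line and treatment over the 12887 genes tested in both, as the NCI-H647 change minus the NCI-H1944 change. EREG, HBEGF, AREG and TGFA rose more in NCI-H647, while the changes of BTC, NRG1 and EGFR were not called as different. With 4 members higher and 1 lower of 9, the background was 17.4% of tested genes higher and 22.7% lower, 40.1% in all. Log2 changes over all genes tested in a line were also wider in NCI-H647 (quartiles -0.29 and 0.32) than in NCI-H1944 (-0.14 and 0.18). Library kit and gene table differ between the lines along with the cells, and cannot be told apart from them.

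For EREG the difference was 1.07 ± 0.07 on the log2 scale (adjusted p = 1.77e-11), for HBEGF 1.02 ± 0.10 (adjusted p = 1.80e-08) and for AREG 1.23 ± 0.17 (adjusted p = 5.93e-06). TGFA differed by 0.71 ± 0.11 (adjusted p = 1.30e-05). Each of these 4 ligands rose in both lines and more so in NCI-H647. BTC differed by 0.03 with a 95% interval from -0.46 to 0.52 (adjusted p = 0.936), an interval wide enough to hold a sizeable difference. NRG1 differed by -0.01, from -0.22 to 0.19 (adjusted p = 0.938), and EGFR by -0.11, from -0.26 to 0.04 (adjusted p = 0.236). ERBB2 differed by -0.45 ± 0.11 (adjusted p = 0.00334), and this call held in all 14 alternatives although its calls within each line did not. ERBB3 differed by 0.68 ± 0.27 (adjusted p = 0.0826) at under 25 counts per NCI-H647 library.

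**Figure D3:**
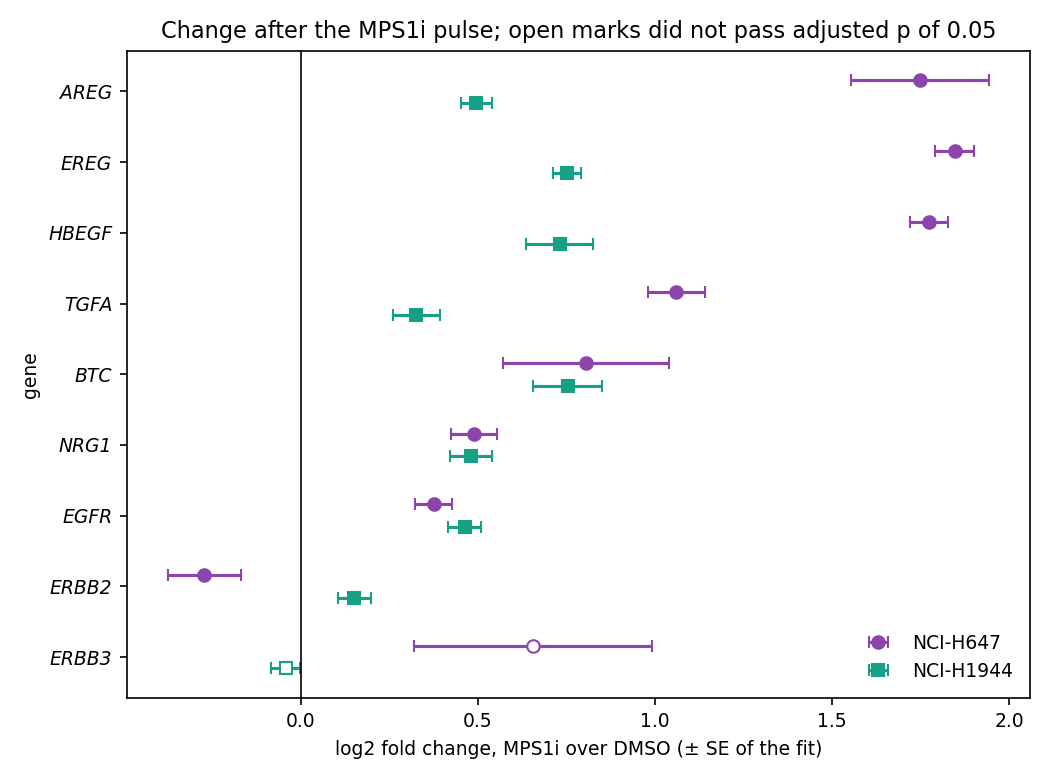
Log2 fold change of MPS1i over DMSO with the standard error of the fit for each gene, NCI-H647 (circles) above NCI-H1944 (squares), from n = 2 libraries per group. Open marks did not pass an adjusted p of 0.05. EREG, HBEGF, AREG and TGFA are parted between the lines by 0.71 to 1.23, and the marks of BTC, NRG1 and EGFR lie close together.

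Levels between genes were compared per length, as CPM per kilobase of the gene's merged exons in GENCODE 29, a measure that depends on which transcripts are used. HBEGF was the highest of the 9 genes per length in NCI-H647, with 30.1 and 29.8 CPM per kb after MPS1i against 8.64 and 8.26 CPM per kb after DMSO. EREG followed after MPS1i, with 18.4 and 17.5 CPM per kb, and ranked below EGFR after DMSO, with 4.81 and 4.85 CPM per kb. EGFR, at 8.06 and 7.53 against 5.77 and 5.86 CPM per kb, ranked next after EREG following MPS1i and just above it following DMSO. After MPS1i TGFA and AREG overlapped in level (means 6.28 and 6.25 CPM per kb), and NRG1 (4.71), BTC (1.72), ERBB2 (1.32) and ERBB3 (0.177) followed apart. After DMSO NRG1 and TGFA overlapped, as did AREG and ERBB2.

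AREG led in NCI-H1944, with 49.1 and 50.9 CPM per kb after MPS1i against 35.8 and 35.8 CPM per kb after DMSO. EREG came next, with 33.1 and 31.1 against 19.0 and 19.5 CPM per kb, followed by ERBB3, with 9.08 and 8.78 against 9.12 and 9.43 CPM per kb. The remaining 6 genes lay between 3.92 and 6.97 CPM per kb on average after MPS1i and between 2.83 and 6.33 after DMSO. Neighbours that overlapped in that order were TGFA and EGFR after MPS1i, and HBEGF and NRG1 after DMSO. ERBB3 was thus the highest receptor per length in NCI-H1944 and the lowest of all 9 genes in NCI-H647.

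Summed over the 6 ligands, the level per length was 67.1 and 66.6 CPM per kb after MPS1i against 23.0 and 21.3 after DMSO in NCI-H647, and 103 and 102 against 68.9 and 69.3 in NCI-H1944. HBEGF made up 44.8% and 44.7% of that sum after MPS1i against 37.5% and 38.9% after DMSO in NCI-H647, and EREG 27.5% and 26.3% against 20.9% and 22.8%. NRG1 made up 7.12% and 6.99% after MPS1i against 15.2% and 14.0% after DMSO there, while its own level was higher after MPS1i. In NCI-H1944 the mix moved less, with AREG at 47.7% and 49.8% against 51.9% and 51.7%, and EREG at 32.1% and 30.5% against 27.6% and 28.1%. These shares are descriptions and carry no test.

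**Figure D4:**
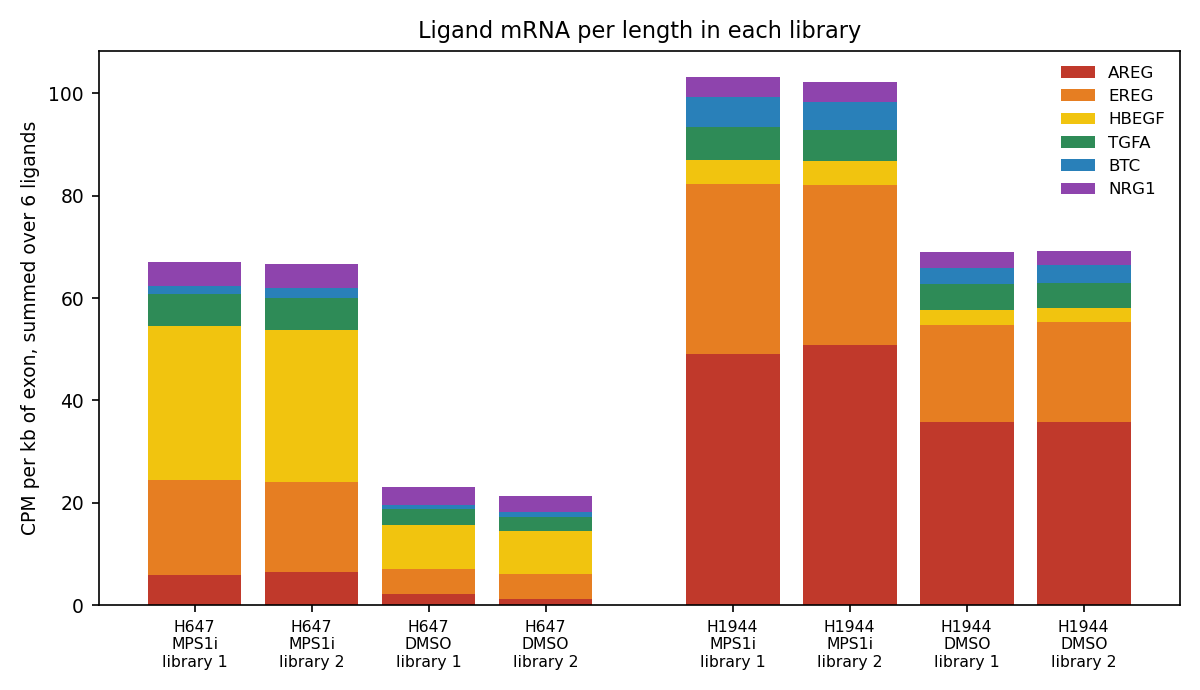
CPM per kilobase of exon of the 6 ligand genes, stacked, in each library, NCI-H647 left and NCI-H1944 right, with MPS1i libraries left of DMSO libraries in each line. HBEGF and EREG fill most of the treated NCI-H647 bars, which reach 67.1 and 66.6, and AREG and EREG fill most of the NCI-H1944 bars.

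Of the ligand genes EREG, AREG and BTC share a stretch of chromosome 4 with EPGN (epigen), another EGFR ligand, next to a cluster of neutrophil chemokine genes. In the NCI-H647 table (GRCh38) EREG spans bases 74365145 to 74388749, AREG starts 80.0 kb downstream on the same strand, and BTC starts 429.4 kb downstream on the opposite strand. EPGN starts 56.7 kb before EREG. In NCI-H647 EPGN rose, with 592 and 618 counts after MPS1i against 624 and 574 after DMSO in libraries of unlike depth (log2 0.42, adjusted p = 1.65e-05). In NCI-H1944 EPGN had 18 and 10 counts against 0 and 6 and was not tested.

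Beyond EPGN lie MTHFD2L, a mitochondrial folate enzyme gene, and the chemokine genes CXCL2, CXCL3, CXCL5 and CXCL1. In NCI-H647 CXCL2 rose by 1.86 on the log2 scale, CXCL1 by 1.65, CXCL3 by 1.58, MTHFD2L by 0.82 and CXCL5 by 0.79 (adjusted p from 9.61e-15 for CXCL1 to 5.93e-07 for MTHFD2L). In NCI-H1944 the log2 changes were 1.00 for CXCL2, 1.71 for CXCL1, 1.35 for CXCL3 and 0.82 for CXCL5, each called, and 0.20 for MTHFD2L (adjusted p = 0.112). PF4, a platelet chemokine gene, had at most 44 counts in a library and was not called in either line. These neighbours were chosen by position and not by their change, among genes with a symbol. Of genes without a symbol tested in NCI-H647, ENSG00000287037 rose (log2 0.73, adjusted p = 0.00118). ENSG00000288796 (log2 0.39, adjusted p = 0.531) and ENSG00000269559 (log2 -0.76, adjusted p = 0.189) were not called. Whether genes of the stretch share a cause was not tested.

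**Figure D5:**
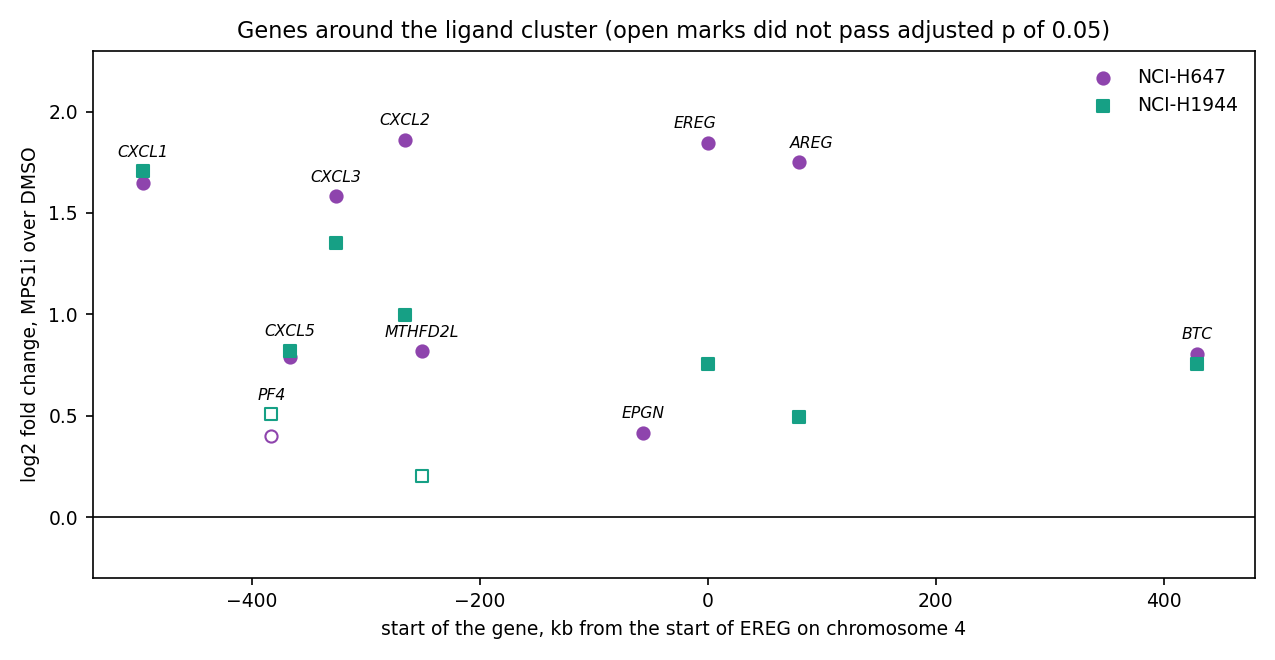
Log2 fold change of MPS1i over DMSO for the tested genes with a symbol within 500 kb of the start of EREG, placed by distance of their start in kb, NCI-H647 as circles and NCI-H1944 as squares. Open marks did not pass an adjusted p of 0.05. EREG and AREG at 0 and 80.0 kb are near 1.8 in NCI-H647, EPGN at -56.7 kb is at 0.42, and BTC at 429.4 kb is at 0.81.

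Outside the 9 members the family has EGF, EPGN, NRG2, NRG3, NRG4 and ERBB4. EGF, the founding ligand, had 109 and 120 counts after MPS1i against 162 and 128 after DMSO in NCI-H647 (log2 0.06, adjusted p = 0.724). In NCI-H1944 it had 572 and 615 against 492 and 415 counts (log2 0.25, adjusted p = 0.0824), so it was called in neither line. ERBB4, the remaining receptor, had 14 and 13 counts against 3 and 9 in NCI-H647 (log2 1.54 ± 0.50, adjusted p = 0.0167) and was listed at 0 in all NCI-H1944 libraries. NRG4, a ligand of ERBB4, fell in NCI-H1944 with 208 and 219 counts against 295 and 252 (log2 -0.49 ± 0.14, adjusted p = 0.0136), and NRG2 rose at 26 and 39 counts against 4 and 10 (adjusted p = 0.0107). In NCI-H647 NRG4 had at most 6 counts and NRG2 at most 1, and NRG3 was listed at 0 in both lines.

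Genes that process or restrain this pathway were read from lists, which were chosen with earlier results of these data known. Of 10 genes of ligand shedding, 6 rose and 2 fell in NCI-H647 (median log2 change 0.29, against 0.01 over all genes tested) and 4 rose and 1 fell in NCI-H1944 (median 0.14, against 0.00). The shares over all genes tested were 27.3% higher and 27.0% lower in NCI-H647, and 13.6% higher and 12.4% lower in NCI-H1944. RHBDF2 (iRhom2), which brings ADAM17 to the cell surface, had 33.5 and 30.3 CPM after MPS1i against 14.9 and 17.1 CPM after DMSO in NCI-H647 (log2 0.95 ± 0.08, adjusted p = 1.55e-07). In NCI-H1944 it had 19.1 and 20.1 against 16.5 and 15.7 CPM (log2 0.29 ± 0.08, adjusted p = 0.0131), and the difference between the lines was called (0.64 ± 0.12, adjusted p = 0.000153). ADAM17 itself rose by 0.34 ± 0.04 in NCI-H647 and by 0.11 ± 0.04 in NCI-H1944 (adjusted p = 7.34e-06 and 0.0481), figures given here though they lie outside the rule for naming. ADAM8 rose and ADAM15 fell in NCI-H647 (log2 0.42 ± 0.05 and -0.47 ± 0.06), and in NCI-H1944 ADAM10, which sheds BTC, rose and ADAM12 fell (log2 0.24 ± 0.04 and -0.19 ± 0.04). ADAM10 rose as much in NCI-H647 (log2 0.24 ± 0.04). By the interaction test ADAM15 differed between the lines (-0.47 ± 0.07, adjusted p = 7.20e-06), while ADAM8, ADAM10 and ADAM12 were not called.

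Among the genes of receptor restraint and turnover 8 rose and 2 fell of 16 tested in NCI-H647 (median 0.17), and 4 rose and none fell of 15 in NCI-H1944 (median 0.10). Over all genes tested, 27.3% were higher and 27.0% lower in NCI-H647 (median 0.01), and 13.6% and 12.4% in NCI-H1944 (median 0.00). ERRFI1 (MIG6), an inhibitor that binds the EGFR kinase domain, had 266 and 263 CPM after MPS1i against 151 and 146 CPM after DMSO in NCI-H647 (log2 0.78 ± 0.04, adjusted p = 3.84e-10). In NCI-H1944 it had 365 and 358 against 325 and 326 CPM (log2 0.16 ± 0.03, adjusted p = 0.000436), a smaller rise by the interaction test (difference 0.59 ± 0.05, adjusted p = 4.99e-10). CBL, a ubiquitin ligase of EGFR, rose by 0.35 ± 0.05 and PTPRJ, a receptor phosphatase, fell (log2 -0.28 ± 0.04) in NCI-H647. Neither was called in NCI-H1944. By the interaction test PTPRJ differed between the lines (-0.26 ± 0.05, adjusted p = 9.58e-05) and CBL did not pass (adjusted p = 0.0542). In NCI-H1944 LRIG1, which promotes receptor degradation, rose by 0.30 ± 0.07 and UBASH3B, which opposes CBL, by 0.23 ± 0.05. In NCI-H647 LRIG1 was not called (log2 0.01 ± 0.04) and UBASH3B fell (log2 -0.21 ± 0.06). For LRIG1 and UBASH3B the interaction test gave negative differences, -0.32 ± 0.07 for LRIG1 (adjusted p = 0.00167) and -0.47 ± 0.09 for UBASH3B (adjusted p = 0.000245).

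Of the 26 adaptors and relay genes 7 were higher and 9 lower in NCI-H647 (median -0.01), where 27.3% of all tested genes were higher and 27.0% lower. In NCI-H1944 4 were higher and 2 lower (median 0.05), beside 13.6% and 12.4% of all genes. The shares higher in this list were near the background in both lines. MAP2K1 (MEK1) rose by 0.62 ± 0.05 in NCI-H647 and 0.22 ± 0.05 in NCI-H1944. In NCI-H647 GRB2, the adaptor that links receptors to RAS activation, rose by 0.38 ± 0.04 and AKT2 fell (log2 -0.32 ± 0.05). STAT3 rose by 0.30 ± 0.03 and PTPN11 (SHP2) fell in NCI-H1944 (log2 -0.22 ± 0.03). Both were called in the same directions in NCI-H647 (log2 0.22 ± 0.05 and -0.15 ± 0.04), and neither difference between the lines was called.

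ERK targets and feedback genes, which respond to this pathway and to other inputs, rose in 13 of 19 and fell in none in NCI-H647 (median 0.52), and rose in 14 and fell in 2 of 20 in NCI-H1944 (median 0.31). The background was 27.3% of genes higher and 27.0% lower in NCI-H647 (median 0.01), and 13.6% higher and 12.4% lower in NCI-H1944 (median 0.00). DUSP5, a nuclear phosphatase of ERK, had 163 and 163 CPM after MPS1i against 53.8 and 48.5 CPM after DMSO in NCI-H647 (log2 1.62 ± 0.06, adjusted p = 2.70e-12), and 441 and 443 against 291 and 293 CPM in NCI-H1944 (log2 0.61 ± 0.03, adjusted p = 6.21e-11). EGR1, an immediate-early transcription factor, rose in both, by 1.89 ± 0.06 in NCI-H647 and 3.05 ± 0.17 in NCI-H1944, where it had 40 and 50 control counts. By the interaction test EGR1 rose less in NCI-H647 (difference -1.17 ± 0.17, adjusted p = 7.84e-06), while DUSP5 rose more (0.99 ± 0.06, adjusted p = 2.91e-12). IER3, an early response gene, rose by 1.42 ± 0.03 in NCI-H647 and by 0.46 ± 0.04 in NCI-H1944, and this difference was called (0.94 ± 0.05). EPHA2, a receptor kinase, rose by 0.62 ± 0.05 in NCI-H647 and by 0.47 ± 0.03 in NCI-H1944, and its difference was not called. These lists, chosen with earlier results of these data known, are descriptions, without a test of the list as a whole. Protein, receptor activity and shed ligand were not measured.

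Genes with the pattern most like EREG, HBEGF and AREG were ranked by distance over the 8 libraries, after log2 CPM (pseudocount 0.5 CPM) was centred on the DMSO mean of each line, among 12887 genes. EREG and HBEGF were each other's nearest gene (distance 0.168), though they lie on different chromosomes. After HBEGF the genes nearest to EREG were SOD2, mitochondrial superoxide dismutase (0.180), and RND1 (0.213). HBEGF was followed after EREG by DUSP5 (0.243) and the transcription factor KLF4 (0.265). For AREG they were MUC13, a membrane mucin (0.276), BMP2, a growth factor (0.302), and MFSD2A, a lipid transporter (0.324). The log2 change of MUC13 was 2.72 in the NCI-H647 fit, against 1.75 for AREG. Distances were computed with this pseudocount alone. AREG lay at 0.523 from HBEGF and 0.653 from EREG, and NRG1 and EGFR lay close together (0.258).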

How the data were processed

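Libraries came from stranded kits, with ribosomal RNA removed for NCI-H647 and an mRNA kit for NCI-H1944, per the labels' protocols. The deposited values are whole-number counts per gene, 1 table per line, used as raw counts. HISAT2, STAR, StringTie, featureCounts, cutadapt, Trimmomatic and Trim Galore are listed, with build GRCh38, per the submitters' processing notes. Their versions and roles, and how strand was counted, are not given, so overlapping genes are uncertain. ERBB2 overlaps PGAP3 and MIEN1, with 21 to 50 and 209 to 267 counts per NCI-H647 library, on the opposite strand. In the NCI-H1944 table more genes were at 2 counts (838 to 1000 per library) than at 1 (706 to 764), unlike in NCI-H647. Those values may therefore not be single reads, and the NCI-H1944 depths, errors and p-values carry that doubt.

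Groups came from the titles, and columns were matched by name. Same-group libraries differed beyond sampling error of counts (chi-square per degree of freedom 1.98 to 3.93). Counts were analysed in R 4.3.3 with edgeR 4.0.16. Genes were kept by filterByExpr (minimum count 10, minimum total 15), scaled by TMM and tested by the quasi-likelihood F test within each line, with the interaction of line and treatment over all 8 libraries for the difference. P-values were Benjamini-Hochberg adjusted over all genes tested, at 0.05. The standard error is the log2 fold change over the square root of F. CPM are counts over the library total, without TMM. The fits were tested on simulated counts of a single fixed dispersion, with changes set only in well-counted genes. The simulation therefore does not bear on low genes or on the doubt over the NCI-H1944 counts. Alternatives were DESeq2 1.42.0, other scaling, no filter, summed repeated symbols, each library left out, and the replicate number as a block. Same-numbered libraries deviated with a correlation of -0.02 (NCI-H647) and 0.04 (NCI-H1944) over 2 pairs.

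Members and lists were chosen with earlier results of these data known. Named were all members, all other family genes, the 3 genes of smallest adjusted p per list and line, and the 3 genes most like AREG, EREG and HBEGF. Genes within 500 kb of EREG were added by position. The NRG1 sequence is not used here.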

Additional observations from a re-analysis of the deposited data

Results flagged for a closer look

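The effect of the inhibitor differed between the lines for 5 of the 9 genes by edgeR's test of the difference itself (NCI-H647 minus NCI-H1944, log2 scale, n = 2 libraries per group). By the same test 40.1% of the 12887 genes tested were called, 17.4% higher and 22.7% lower. The difference was 1.07 for EREG (adjusted p = 1.77e-11), 1.02 for HBEGF (adjusted p = 1.80e-08), 1.23 for AREG (adjusted p = 5.93e-06) and 0.71 for TGFA (adjusted p = 1.30e-05). Each of these ligands was called higher in both lines. For ERBB2 the difference was -0.45 (adjusted p = 0.00334). ERBB2 was called lower in NCI-H647 and higher in NCI-H1944, in calls that several alternatives ended. Kit and gene table differ with the line and cannot be told apart from it.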

How the results depend on the processing

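Of the 27 changes of the 9 genes (in each line and between lines), 283 of 306 values under the alternatives kept the direction and the side of the threshold, 13 lost a call and 10 turned sign. The lost calls were those of ERBB2 in both lines and BTC in NCI-H647 given above. All turns were in differences between the lines that were called nowhere. For NRG1 (main value -0.01) the difference was 0.013 with DESeq2 size factors, 0.026 with upper-quartile factors, 0.014 in DESeq2, and from -0.13 to 0.12 with a library left out. For BTC (main value 0.03) it ranged from -0.20 to 0.27 with a library left out.

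Of the 9 members, 6 to 8 were called in NCI-H647 and 7 to 8 in NCI-H1944 over the alternatives, and 5 for the difference in each. In the main fits 54.4% of all genes tested were called in NCI-H647, 26.0% in NCI-H1944 and 40.1% for the difference. Genes called in NCI-H647 fell to 5446 of 15049 in DESeq2 (8184 in edgeR). In NCI-H1944 they fell to 2325 of 24972 with no low-count filter (4346 of 16738 with it). Leaving out a library gave 6922 to 7395, 3335 to 3732 and, for the difference, 4177 to 4978 (5166 with all). With the replicate block 8434, 4817 and 5215 genes were called, and it changed no call of the 9 genes. With 2 libraries per group the spread rests on few values, and whether depth limits the calls of low genes was not tested.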
